A study of Mus musculus with 12 samples.

Results

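MC38 tumors of mice given PB-020 together with an anti-PD-1 antibody were compared with MC38 tumors of mice given PB-020 alone, so the contrast measured what the antibody added on a PB-020 background. The comparison used 6 of the 12 tumors of the series, 3 in each group, chosen by their treatment labels and not by any measured value. MC38 is a mouse colon carcinoma cell line, and the cells had been injected subcutaneously into female C57BL/6 mice of 5 weeks of age. All mice of the comparison received PB-020, a compound described by the study as an inhibitor of IGF-1R, the receptor for insulin-like growth factor 1, at 50 mg/kg per day by oral gavage after grouping on day 7. The combination group also received the anti-PD-1 antibody RMP1-14 at 200 µg per mouse on days 9, 12, 15 and 18 after cell injection. The other 6 tumors came from mice given vehicle (CK) or the antibody alone, and they entered the comparison through the shared estimate of the spread and as the measure of the antibody's effect without PB-020. The study reported less MC38 tumor growth with the combination than with either treatment alone. Tumor size thus went with treatment, and its part in the differences below cannot be told apart from that of the antibody. Total RNA of whole tumors was sequenced, so cancer cells and host cells were measured together. A change in the number of cells of a type cannot be told apart from a change in RNA per cell. Each sample carries a replicate number of its group, but the labels do not say that each tumor came from a mouse of its own, so the p-values measure the spread between these samples.

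PD-1, encoded by Pdcd1, is an inhibitory receptor on activated T cells that dampens signaling from the T cell receptor when it binds its ligands PD-L1 (Cd274) and PD-L2 (Pdcd1lg2). Antibodies against PD-1 release this restraint, and T cells and natural killer cells then secrete interferon gamma, which acts through JAK kinases on target genes for antigen presentation, T cell attracting chemokines and GTPases of cell defense. IGF-1R is a receptor tyrosine kinase that signals through the insulin receptor substrates to PI3K and AKT and thereby to growth and survival. MC38 tumors in C57BL/6 mice are a common model of response to PD-1 blockade.

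The 6 libraries held between 16545394 and 16986854 summed expected counts, a narrow range of depth. Most gut epithelial markers examined were nearly absent from the whole series, as Krt8 and Krt18 reached at most 0.14 FPKM, Epcam at most 0.54 FPKM, and Vil1 and Cdx2 at most 0.06 FPKM in any of the 12 tumors. The epithelial gene Cdh1 was low but present, between 1.59 and 3.96 FPKM in the 12 tumors. The mesenchymal gene Vim lay between 1828 and 2167 FPKM. FPKM denotes fragments scaled by transcript length and by the mapped fragments of the library, and values of the 3 tumors of a group are given below in the order of their replicate numbers.

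Adding the antibody to PB-020 altered 455 of 13563 genes tested (3.35%) at an adjusted p under 0.05 in edgeR's quasi-likelihood test. Of these, 169 genes were raised (1.25% of all genes tested) and 286 were lowered (2.11%), and in all 455 the 3 combination tumors lay wholly on one side of the 3 PB-020 tumors. Genes of T cells, natural killer cells and antigen presentation were among the raised ones, and some collagens, fibroblast receptors and matrix proteins among the lowered ones. Changes were moderate in size, with a median log2 change of 0.63 among raised and -0.47 among lowered genes, and the mean FPKM was more than 2-fold higher for 50 raised genes and more than 2-fold lower for 32 lowered genes. The median over all genes tested was -0.00094. At an unadjusted p under 0.05, 10.2% of genes were higher and 12.3% lower, and all 3 combination tumors lay above all 3 PB-020 tumors for 14.5% of genes and below them for 15.7%. Counts of list members below are to be read against these shares of all genes. The smallest adjusted p was 0.0163, so many calls lay close to the threshold.

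The number of calls depended strongly on some of the libraries, as the plot of calls by fit shows. Without PB-020 tumor 1, PB-020 tumor 3, combination tumor 1 or combination tumor 2, the calls were 1, 11, 0 and 2, and without combination tumor 3 they were 105. Without PB-020 tumor 2 they were 397. Without anti-PD-1 tumor 1, which is not a tumor of the comparison and contributes only to the shared spread, the calls increased to 1269. Leaving out anti-PD-1 tumor 2 gave 738 calls, and leaving out CK tumor 1 gave 284. Without CK tumor 2, CK tumor 3 or anti-PD-1 tumor 3 the calls were 339, 374 and 350. When only the 6 tumors of the comparison were fitted, 1535 of 13268 genes were called, 814 raised (6.14%) and 721 lowered (5.43%), among them 448 of the 455. Leaving out 1 of these 6 tumors from that fit gave between 685 and 2074 calls. DESeq2, fitted to all 12 libraries, called 527 genes of 13542 raised (3.89%) and 566 lowered (4.18%). Counts of list members given for DESeq2 or for the 6 tumors alone are to be read against the shares of that fit. Where no fit is named below, a gene is called or not in edgeR's fit of the 12 libraries. Anti-PD-1 tumor 1 was the library with the most skeletal muscle RNA, with Acta1 at 176 FPKM and Ckm at 67.7 FPKM against at most 24.5 and 5.34 FPKM in the other 11 tumors, and its summed T cell markers reached 99.5 FPKM against 40.6 and 40.9 FPKM in the other anti-PD-1 tumors.

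**Figure D1:**
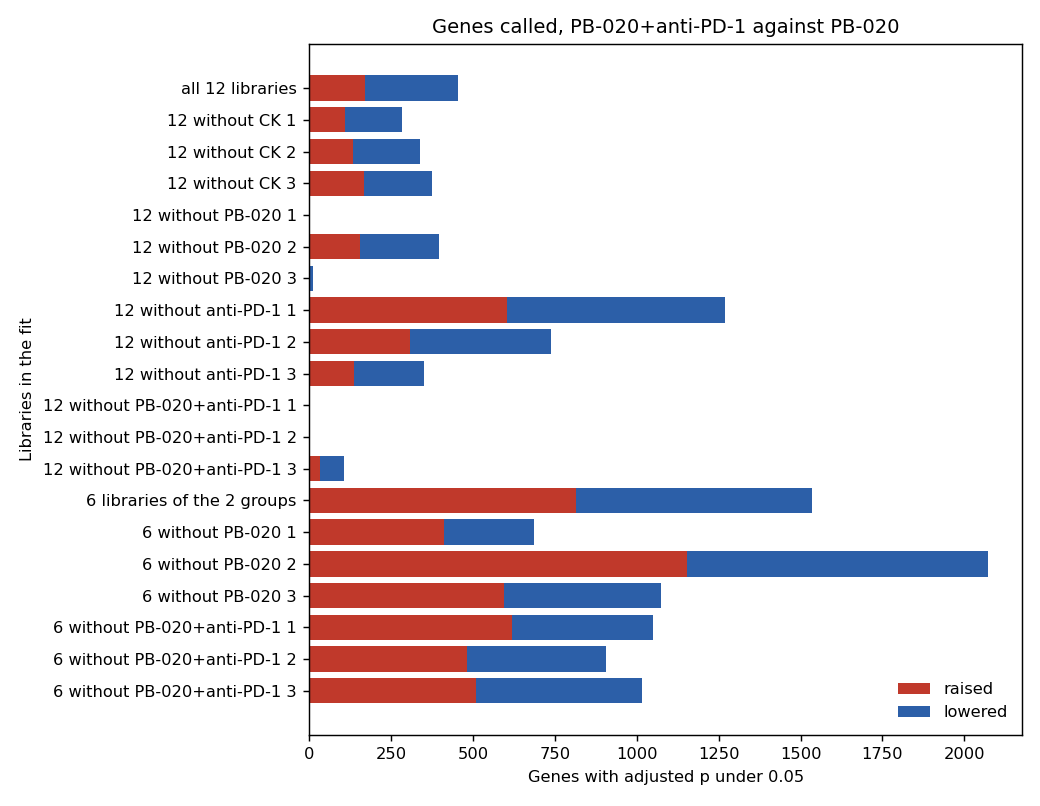
Number of genes called raised (red) or lowered (blue) at adjusted p under 0.05 in PB-020+anti-PD-1 against PB-020, for fits of all 12 libraries or of the 6 tumors compared and for each of these without 1 library. The 12-library fit gave 455 calls and the fit of the 6 tumors alone 1535, and leaving out 1 combination tumor from the 12 gave between 0 and 105.

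The raised genes with the smallest p included immune receptors and enzymes. Gpr171, a G protein-coupled receptor expressed by T cells, measured 1.6, 1.71 and 1.79 FPKM in the PB-020 tumors and 4.85, 5.0 and 4.74 FPKM in the combination tumors (log2 change 1.51 ± 0.27, adjusted p = 0.0196, where ± is the standard error). Clec12a, an inhibitory lectin of myeloid cells, measured 12.7, 12.02 and 15.01 FPKM in the PB-020 tumors and 20.1, 27.2 and 20.7 FPKM in the combination tumors (log2 change 0.76 ± 0.14, adjusted p = 0.0198). In both genes the lowest combination tumor lay above the highest PB-020 tumor. Apobec3, a cytidine deaminase that restricts retroviruses, was abundant and rose from 92.1, 85.6 and 81.3 FPKM to 126, 116 and 129 FPKM (log2 change 0.47 ± 0.0809, adjusted p = 0.0195). Coro2a, a coronin that binds actin, had a tight PB-020 group of 9.7, 10.1 and 9.75 FPKM, and its combination tumors measured 17.02, 15.3 and 17.6 FPKM (log2 change 0.75 ± 0.12, adjusted p = 0.0184).

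Mcpt1 and Mcpt2, chymase-like mast cell proteases, showed the largest fold changes of the 12 most significant raised genes. Mcpt1 measured 0.2, 0.27 and 0.07 FPKM in the PB-020 tumors and 2.05, 2.33 and 1.68 FPKM in the combination tumors, which rested on 3, 4 and 1 counts against 30, 34 and 25 counts, a fitted 10.8-fold difference (log2 change 3.43 ± 0.61, adjusted p = 0.0198). Mcpt2 measured 0.79, 0.43 and 0.72 FPKM in the PB-020 tumors and 3.07, 3.95 and 3.23 FPKM in the combination tumors, from 11, 6 and 10 against 42, 54 and 45 counts (log2 change 2.38 ± 0.43, adjusted p = 0.0198). These genes belong to a family of close relatives between which reads may be divided. Other mast cell genes did not pass the test: Cpa3 had a log2 change of -0.21, Tpsb2 of -0.40, Cma1 of -0.39 and Kit of 0.02. The remaining raised genes of this set were Ppa1, an inorganic pyrophosphatase, at a log2 change of 0.42, Atm, a DNA damage kinase, at 0.44, Gk, glycerol kinase, at 0.55, Bsn, a presynaptic scaffold protein, at 0.62, and the locus LOC108167440 at 0.77.

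T cell markers were higher in the combination tumors as a group, although few passed the test one by one. All 17 tested markers had a positive log2 change, with a median of 1.15 against the -0.00094 of all genes. In 16, all combination tumors lay above all PB-020 tumors, against 14.5% of all genes, and 3 were called raised (17.6%, against 1.25%). The called members encode parts of the T cell receptor complex and its partner. Cd3d measured 1.2, 1.19 and 1.4 FPKM in the PB-020 tumors and 2.55, 5.03 and 3.54 FPKM in the combination tumors (log2 change 1.65 ± 0.42, adjusted p = 0.0493). Cd247, the CD3 zeta chain, measured 1.59, 1.15 and 1.8 FPKM in the PB-020 tumors and 2.39, 4.46 and 3.79 FPKM in the combination tumors (log2 change 1.28 ± 0.32, adjusted p = 0.0457). Cd2, an adhesion receptor of T cells and natural killer cells, measured 2.14, 2.32 and 2.79 FPKM in the PB-020 tumors and 5.6, 8.04 and 7.11 FPKM in the combination tumors (log2 change 1.51 ± 0.35, adjusted p = 0.039). In all 3 genes combination tumor 1 was the lowest of its group and combination tumor 2 the highest, and neither group reached the other. The co-receptors did not pass: Cd8a measured 2.73, 2.43 and 3.08 FPKM in the PB-020 tumors and 4.73, 7.39 and 6.25 FPKM in the combination tumors (log2 change 1.16, adjusted p = 0.0925) and Cd4 1.14, 0.86 and 1.25 FPKM in the PB-020 tumors and 1.74, 2.12 and 1.85 FPKM in the combination tumors (log2 change 0.82, adjusted p = 0.261). The summed level of the list was 25.9 to 33.0 FPKM in PB-020 tumors and 49.7 to 76.4 FPKM in combination tumors. In the fit of the 6 tumors alone all 17 members were called raised, against 6.14% of all genes. Leaving out anti-PD-1 tumor 1 gave 16 raised of 18, against 603 of 13680 genes. No member was called without any of the PB-020 tumors, any of the combination tumors or CK tumor 2, while the median lay between 1.02 and 1.31 in those fits.

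Natural killer receptors followed with 3 of 10 members called raised (30%, against 1.25% of all genes) and a median of 1.03. Klrk1, which encodes the activating receptor NKG2D, measured 2.07, 1.23 and 2.18 FPKM in the PB-020 tumors and 4.55, 7.09 and 5.08 FPKM in the combination tumors (log2 change 1.44 ± 0.30, adjusted p = 0.0308). Klrd1, the CD94 subunit of the NKG2 receptors, measured 4.21, 2.68 and 6.0 FPKM in the PB-020 tumors and 8.99, 15.4 and 11.2 FPKM in the combination tumors (log2 change 1.45 ± 0.35, adjusted p = 0.0487). Klre1 measured 0.8, 0.61 and 0.95 FPKM in the PB-020 tumors and 1.51, 2.8 and 2.96 FPKM in the combination tumors (log2 change 1.61 ± 0.36, adjusted p = 0.0352). All are also expressed by activated CD8 T cells. PB-020 tumor 2 was the lowest library for each of these receptors. Ncr1, the NKp46 receptor more particular to natural killer cells, measured 0.63, 0.5 and 0.94 FPKM in the PB-020 tumors and 1.77, 1.93 and 1.88 FPKM in the combination tumors and did not pass (adjusted p = 0.0609), and Eomes, a transcription factor of both lineages, had a log2 change of -0.06.

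**Figure D2:**
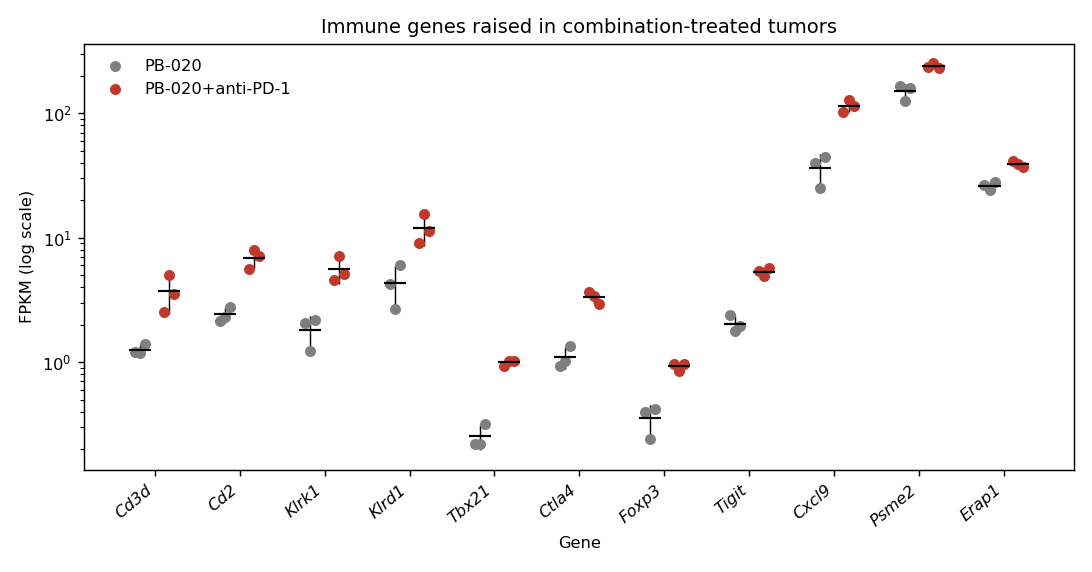
FPKM (log scale) of called immune genes in each PB-020 tumor (grey) and PB-020+anti-PD-1 tumor (red), 3 points per group in order of replicate number, with the mean (horizontal bar) and SD (vertical line). The combination tumors lie above the PB-020 tumors in every gene shown, as in Cd2 at 5.6 to 8.04 FPKM against 2.14 to 2.79 FPKM.

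Markers of regulatory T cells were also higher, with 2 of 10 called raised (20%, against 1.25% of all genes), all 10 positive and a median of 0.97. Foxp3, the defining transcription factor of these cells, measured 0.4, 0.24 and 0.42 FPKM in the PB-020 tumors and 0.97, 0.85 and 0.96 FPKM in the combination tumors (log2 change 1.40 ± 0.36, adjusted p = 0.0487). Ctla4, an inhibitory receptor carried by regulatory and activated T cells, measured 0.93, 1.03 and 1.36 FPKM in the PB-020 tumors and 3.67, 3.38 and 2.91 FPKM in the combination tumors (log2 change 1.58 ± 0.34, adjusted p = 0.0319). Both groups were well apart in either gene, but Foxp3 remained under 1 FPKM throughout. Among inhibitory receptors, 3 of 14 were called raised, against 1.25% of all genes, with a median of 0.93 and 12 members separated upward, against 14.5%. Besides Ctla4 these were Tigit, an inhibitory receptor for nectin-like ligands, at 2.39, 1.77 and 1.96 FPKM in the PB-020 tumors and 5.41, 4.89 and 5.69 FPKM in the combination tumors (log2 change 1.38 ± 0.32, adjusted p = 0.0386), and Cd160 at 0.4, 0.18 and 0.31 FPKM in the PB-020 tumors and 0.71, 1.19 and 0.77 FPKM in the combination tumors (log2 change 1.59 ± 0.40, adjusted p = 0.0467). Lag3 (log2 change 1.04, adjusted p = 0.0748) and Havcr2, which encodes TIM-3 (log2 change 0.81, adjusted p = 0.0576), missed the threshold with separated groups.

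The target of the antibody itself measured 0.93, 0.9 and 1.69 FPKM in the PB-020 tumors and 2.55, 3.28 and 3.21 FPKM in the combination tumors (log2 change 1.36 ± 0.37, adjusted p = 0.0599). All combination tumors lay above all PB-020 tumors for Pdcd1, but the gene did not pass in the 12-library fit. Its ligand Cd274 measured 9.13, 8.49 and 11.1 FPKM in the PB-020 tumors and 15.6, 20.2 and 17.5 FPKM in the combination tumors (log2 change 0.89 ± 0.36, adjusted p = 0.186), and Pdcd1lg2 measured 0.67, 0.29 and 0.47 FPKM in the PB-020 tumors and 1.8, 1.29 and 1.51 FPKM in the combination tumors (log2 change 1.68 ± 0.82, adjusted p = 0.262). No member of the 7 PD-1 ligand and B7 family genes was called by edgeR in the 12 libraries. The median was 0.59, and 5 were separated upward, against 14.5% of all genes. DESeq2 called 2 of the 7 raised, against 3.89% of all genes, and the fit of the 6 tumors alone called 5 raised, against 6.14%. In the fit of the 6 tumors the adjusted p was 0.000536 for Cd274 and 0.000868 for Pdcd1lg2. Cd80, a ligand of CD28 and CTLA-4 on antigen-presenting cells, came closest at 1.56, 1.8 and 1.7 FPKM in the PB-020 tumors and 3.72, 3.56 and 2.95 FPKM in the combination tumors (adjusted p = 0.0732). Receptors for cytokines of the common gamma chain family had 6 of 7 members separated upward, against 14.5% of all genes, and a median of 0.83. None was called by edgeR in the 12 libraries. DESeq2 called 3 raised, against 3.89% of all genes, and the fit of the 6 tumors alone 5, against 6.14%. Il7r, the interleukin 7 receptor, measured 2.97, 3.8 and 3.89 FPKM in the PB-020 tumors and 6.4, 8.97 and 5.93 FPKM in the combination tumors (adjusted p = 0.0681).

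Effector genes of cytotoxic cells behaved less uniformly than the lymphocyte markers. Only 1 of 18 was called raised (5.56%, against 1.25% of all genes), 13 had a positive log2 change, and the median was 0.57. The called member was Tbx21, which encodes T-bet, the transcription factor of type 1 lymphocytes, at 0.22, 0.22 and 0.32 FPKM in the PB-020 tumors and 0.94, 1.03 and 1.03 FPKM in the combination tumors (log2 change 1.96 ± 0.43, adjusted p = 0.0333). Ifng, the gene of interferon gamma, measured 1.06, 0.84 and 1.84 FPKM in the PB-020 tumors and 2.03, 3.91 and 3.61 FPKM in the combination tumors (log2 change 1.35, adjusted p = 0.0906) with separated groups. Gzmb, the gene of granzyme B, a protease that kills target cells, measured 21.6, 12.1 and 23.6 FPKM in the PB-020 tumors and 22.9, 31.8 and 27.8 FPKM in the combination tumors. Prf1, the gene of the pore-forming protein perforin, measured 8.15, 2.48 and 8.79 FPKM in the PB-020 tumors and 6.19, 9.62 and 8.81 FPKM in the combination tumors. Both had overlapping groups. The granzyme genes Gzmc, Gzmd, Gzme, Gzmf and Gzmg had negative log2 changes between -0.64 and -0.25, none of which passed. Gzmf, for example, measured 135, 19.6 and 145 FPKM in the PB-020 tumors and 40.4, 92.96 and 65.8 FPKM in the combination tumors, with PB-020 tumor 2 far below the other PB-020 tumors. These granzymes lie in a cluster of near-identical copies, so their single values are uncertain.

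B cell markers were scarce. Only 2 of the 9 listed genes were expressed highly enough to be tested and neither passed, with Pax5, the B cell transcription factor, at 0.02, 0.05 and 0.05 FPKM in the PB-020 tumors and 0.19, 0.06 and 0.09 FPKM in the combination tumors (adjusted p = 0.167). Of 12 dendritic cell markers, 1 was called raised (8.33%, against 1.25% of all genes). Siglech, a lectin of plasmacytoid dendritic cells, measured 0.12, 0.12 and 0.23 FPKM in the PB-020 tumors and 0.5, 0.82 and 0.9 FPKM in the combination tumors (log2 change 2.07 ± 0.49, adjusted p = 0.0388), a rise from very low levels. The dendritic cell genes Zbtb46 (log2 change 0.10) and Flt3 (log2 change 0.14) had overlapping groups.

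Macrophage markers were abundant and mixed. None of 15 was called by edgeR in the 12 libraries, and the median log2 change was 0.22, but 7 members were separated upward, against 14.5% of all genes, and 2 downward, against 15.7%. DESeq2 called 1 raised, and the fit of the 6 tumors alone 3 raised and 1 lowered. Csf1r, the receptor for the growth factor of macrophages, measured 34.5, 32.98 and 30.2 FPKM in the PB-020 tumors and 31.9, 34.4 and 37.1 FPKM in the combination tumors, with overlapping groups. Fcgr1, the high-affinity antibody receptor, measured 8.85, 8.9 and 9.94 FPKM in the PB-020 tumors and 13.99, 15.3 and 12.5 FPKM in the combination tumors (log2 change 0.59, adjusted p = 0.112). Cd163, a scavenger receptor of tissue macrophages, pointed the other way at 1.09, 0.84 and 1.48 FPKM in the PB-020 tumors and 0.39, 0.21 and 0.15 FPKM in the combination tumors without passing (adjusted p = 0.211). Vsig4, a complement receptor of resident macrophages that is in none of the lists and was picked after its values were seen, fell from 0.69, 0.6 and 1.15 to 0.09, 0.09 and 0.18 FPKM (log2 change -2.67 ± 0.49, adjusted p = 0.0207), from 15, 13 and 25 to 2, 2 and 4 counts. The 7 neutrophil markers included no separated gene and no call by edgeR or DESeq2, with a median that lay between -0.34 and 0.83 without single libraries, and Mmp9, a gelatinase stored in neutrophil granules, had a log2 change of -0.64.

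Interferon-responsive genes were higher in the combination tumors over a wide front, with little that passed gene by gene. Such genes often carry either of the following motifs in their promoters. The interferon-stimulated response element (ISRE), bound by IRF factors, has the core GAAA, any 2 bases, GAAA, and the gamma-activated site (GAS), named for its response to interferon gamma, has the core TTC, any 3 bases, GAA. Both were searched on either strand in the 250 bases before the transcription start of RefSeq genes (GRCm38.p6). The ISRE core stood in 3.37% and the GAS core in 7.30% of 10732 genes tested that had a promoter sequence, and in 90.9% and 54.5% of the 11 interferon-inducible GTPases with one. The shares were 47.4% and 15.8% of 19 type I interferon genes, 12.5% and 37.5% of 8 genes of the interferon gamma axis, 7.69% and 7.69% of 13 MHC class I genes, and 12.5% and 12.5% of 8 class II genes. Of the 133 genes called raised that had a promoter sequence, 6.77% held the ISRE core and 9.02% the GAS core. The following windows carry the motif in capitals, written on the strand of the gene, and are shown because these genes span the GTPases, a T cell chemokine, a transcription factor of the interferon response and a called gene.
Gbp2, a guanylate-binding protein (chr3:142620579-142620638, plus strand): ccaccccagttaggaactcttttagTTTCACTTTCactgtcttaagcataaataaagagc
Gbp7, another guanylate-binding protein (chr3:142530258-142530317, plus strand): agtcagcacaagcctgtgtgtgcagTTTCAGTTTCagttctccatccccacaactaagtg
Igtp, an immunity-related GTPase (chr11:58199497-58199555, plus strand): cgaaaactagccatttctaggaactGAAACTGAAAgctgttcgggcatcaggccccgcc
Cxcl10, a chemokine for activated T cells (chr5:92349068-92349127, minus strand): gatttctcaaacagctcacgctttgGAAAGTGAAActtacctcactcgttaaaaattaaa
Apobec3, called raised (chr15:79892243-79892302, plus strand): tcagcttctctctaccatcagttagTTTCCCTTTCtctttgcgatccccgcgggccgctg
Irf1, a transcription factor, with the GAS core in capitals (chr11:53769899-53769957, plus strand): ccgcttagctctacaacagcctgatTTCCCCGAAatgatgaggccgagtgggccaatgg
In Gbp2, Gbp7 and Apobec3 the ISRE core reads on the opposite strand, so its reverse complement is printed. Igtp and Gbp7 also hold a GAS core elsewhere in these 250 bases, without overlap with the ISRE core. A match is a description of letters and was not tested as a binding site.

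The interferon-inducible GTPases, 11 of which had a promoter sequence, had higher values in the combination tumors. All 17 had positive log2 changes, with a median of 0.98. Of the 17, 16 were separated upward, against 14.5% of all genes, and 14 passed an unadjusted p under 0.05, against 10.2%. None was called by edgeR in the 12 libraries. DESeq2 called 7 raised, against 3.89% of all genes, and the fit of the 6 tumors alone 2, against 6.14%. Gbp2 measured 159, 88.7 and 186 FPKM in the PB-020 tumors and 299, 402 and 349.8 FPKM in the combination tumors (log2 change 1.27, adjusted p = 0.0925). Gbp7 measured 33.02, 19.8 and 36.6 FPKM in the PB-020 tumors and 64.01, 67.8 and 62.6 FPKM in the combination tumors (log2 change 1.12, adjusted p = 0.0802), and Igtp measured 92.5, 47.8 and 116 FPKM in the PB-020 tumors and 146, 167 and 155 FPKM in the combination tumors (log2 change 0.87, adjusted p = 0.196). In each the groups were apart, and PB-020 tumor 2 was well below the other PB-020 tumors. That library was the lowest of the 6 for all 17 members, and without it the median of the list was 0.71. Gbp and Tgtp genes have close copies, so single values are uncertain.

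In the interferon gamma axis, the receptors and kinases differed little in value and the targets were higher. Of 11 members none was called by edgeR in the 12 libraries, while DESeq2 called 6 raised and the fit of the 6 tumors alone 7. In the first of these fits 8 of the 11 were higher at an unadjusted p under 0.05, against 10.2% of all genes. The median was 0.63. The receptor chains Ifngr1 and Ifngr2 had log2 changes of -0.04 and 0.17, and the kinases Jak1 and Jak2 of -0.12 and 0.12. Irf1, whose GAS window is printed above, measured 94.4, 81.98 and 97.6 FPKM in the PB-020 tumors and 132, 144 and 151 FPKM in the combination tumors (log2 change 0.64, adjusted p = 0.0801), and Irf8 measured 11.3, 10.2 and 13.03 FPKM in the PB-020 tumors and 16.2, 18.8 and 18.5 FPKM in the combination tumors (adjusted p = 0.0723). For both transcription factors all combination tumors lay above all PB-020 tumors. Genes typical of type I interferon were different in form. All 23 were positive with a median of 0.56, and 6 were separated upward, against 14.5% of all genes. None was called by edgeR in the 12 libraries, by DESeq2 or in the 6 tumors alone. The median of the type I interferon-stimulated genes was 0.14 without combination tumor 1 and 0.32 without PB-020 tumor 2. Combination tumor 1 was far above the other combination tumors in this list, as in Isg15 at 48.7, 27.1 and 49.04 FPKM in the PB-020 tumors and 132, 53.6 and 49.6 FPKM in the combination tumors. Zbp1, a sensor of nucleic acids, had the smallest p of the list at 48.96, 27.2 and 50.9 FPKM in the PB-020 tumors and 96.7, 79.04 and 65.4 FPKM in the combination tumors (adjusted p = 0.123).

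The T cell chemokines and their receptor had higher values in the combination tumors, and Cxcl9 passed the test. Cxcl9 measured 39.8, 24.9 and 44.9 FPKM in the PB-020 tumors and 102, 127 and 114 FPKM in the combination tumors (log2 change 1.65 ± 0.36, adjusted p = 0.0484). Cxcl10 measured 94.4, 54.6 and 101 FPKM in the PB-020 tumors and 187, 157 and 147 FPKM in the combination tumors (adjusted p = 0.203), and the receptor Cxcr3 0.53, 0.73 and 0.57 FPKM in the PB-020 tumors and 1.19, 1.86 and 1.01 FPKM in the combination tumors (adjusted p = 0.165). All 3 genes of the axis were separated upward, against 14.5% of all genes. Among 20 chemokines and receptors of the CC family 1 was called raised (5%, against 1.25% of all genes), and the median was 0.48. Ccl5, a chemokine for T cells, measured 15.2, 19.3 and 29.5 FPKM in the PB-020 tumors and 40.4, 55.5 and 51.1 FPKM in the combination tumors (log2 change 1.2, adjusted p = 0.349), while Ccl2, a chemokine for monocytes, had a log2 change of 0.00 with overlapping groups.

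Antigen presentation by MHC class I held 3 called genes of 16, all raised (18.8%, against 1.25% of all genes). Of the 16, 13 were separated upward, against 14.5% of all genes, and the median was 0.58. The called members serve the cutting of peptides. Erap1, the aminopeptidase that trims peptides in the endoplasmic reticulum, measured 26.6, 23.98 and 28.1 FPKM in the PB-020 tumors and 41.1, 39.2 and 36.9 FPKM in the combination tumors (log2 change 0.57 ± 0.11, adjusted p = 0.0274). Psme1 and Psme2, the subunits of the PA28 proteasome activator, measured 168, 134 and 155 FPKM in the PB-020 tumors and 209.6, 217 and 215 FPKM in the combination tumors (log2 change 0.49 ± 0.11, adjusted p = 0.0363) and 165, 126 and 159.6 FPKM in the PB-020 tumors and 235, 252 and 229.8 FPKM in the combination tumors (log2 change 0.67 ± 0.15, adjusted p = 0.0381). For all 3 genes the combination tumors were within a narrow range above every PB-020 tumor. The class I heavy chains H2-K1 (log2 change 0.32, adjusted p = 0.22) and H2-D1 (log2 change 0.33, adjusted p = 0.146) and the light chain B2m (log2 change 0.33, adjusted p = 0.267) did not pass. Of 11 class II genes 1 was called raised (9.09%, against 1.25% of all genes) and all were positive, with a median of 0.83. DESeq2 called 5 raised and the fit of the 6 tumors alone 6. The gene called by edgeR in the 12 libraries was H2-DMb1, a chain of the peptide exchange factor. It measured 59.4, 43.6 and 54.97 FPKM in the PB-020 tumors and 76.9, 75.4 and 76.3 FPKM in the combination tumors (log2 change 0.53 ± 0.12, adjusted p = 0.0397). Ciita, the master regulator of class II genes, measured 2.56, 1.67 and 2.09 FPKM in the PB-020 tumors and 4.02, 4.39 and 4.9 FPKM in the combination tumors (adjusted p = 0.0804), and Cd74, the invariant chain, measured 454, 280.2 and 382 FPKM in the PB-020 tumors and 654, 764 and 813 FPKM in the combination tumors (adjusted p = 0.102). The 5 called members of the interferon and MHC lists that had a promoter sequence held neither core in the 250 bases.

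Ido1 and Ubd, interferon-inducible genes outside the lists that were picked after their values were seen, were also raised. Ido1, the tryptophan-degrading enzyme, measured 2.27, 1.18 and 1.39 FPKM in the PB-020 tumors and 7.34, 8.74 and 8.69 FPKM in the combination tumors (log2 change 2.35 ± 0.41, adjusted p = 0.0241). Ubd, the ubiquitin-like protein FAT10, measured 14.2, 9.85 and 15.6 FPKM in the PB-020 tumors and 43.8, 55.3 and 46.6 FPKM in the combination tumors (log2 change 1.88 ± 0.34, adjusted p = 0.03). Runx3, a transcription factor of cytotoxic T cells picked in the same way, measured 2.21, 2.69 and 2.31 FPKM in the PB-020 tumors and 3.99, 4.52 and 4.58 FPKM in the combination tumors (log2 change 0.86 ± 0.15, adjusted p = 0.0198). In all 3 genes the lowest combination tumor was well above the highest PB-020 tumor.

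The lowered genes with the smallest p were led by Lbp, the lipopolysaccharide-binding protein, which fell from 15.4, 23.4 and 22.4 to 5.99, 7.39 and 8.78 FPKM (log2 change -1.47 ± 0.17, adjusted p = 0.0163). Cd55, a membrane protein that shields cells from complement, fell from 14.8, 12.7 and 15.2 to 6.51, 7.81 and 7.18 FPKM (log2 change -0.98 ± 0.13, adjusted p = 0.0163). C1qtnf1, a secreted protein with a C1q domain, measured 14.6, 15.6 and 17.4 FPKM in the PB-020 tumors and 7.64, 8.27 and 8.76 FPKM in the combination tumors (log2 change -0.95 ± 0.13, adjusted p = 0.0165). The 2 groups lay far apart in each of these genes. Acpp, an acid phosphatase, measured 2.54, 2.36 and 1.8 FPKM in the PB-020 tumors and 0.58, 1.04 and 0.54 FPKM in the combination tumors (log2 change -1.75 ± 0.24, adjusted p = 0.0163), and Chrna1, a subunit of the muscle acetylcholine receptor, measured 1.48, 1.25 and 1.68 FPKM in the PB-020 tumors and 0.37, 0.45 and 0.56 FPKM in the combination tumors (log2 change -1.67 ± 0.24, adjusted p = 0.0163). The other members of this set were Arhgef28 at a log2 change of -0.89, Pcdhb17, a protocadherin, at -0.87, Sorcs2, a receptor of the sortilin family, at -0.76, Cdh13, T-cadherin, at -0.48, Rftn2, a raftlin, at -0.90, and the ubiquitin ligases Dtx4 at -0.50 and Rnf167 at -0.48. Pcdhb17 has close copies in its gene cluster.

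Fibroblast genes fell in part and did not move as a block. Of 12 markers 5 were called lowered, against 2.11% of all genes, and none raised, but 6 members had positive log2 changes and the median was 0.13. Col3a1, the chain of type III collagen and among the most abundant transcripts of the list, fell from 1071, 1097 and 1049 to 364, 478 and 513 FPKM (log2 change -1.25 ± 0.22, adjusted p = 0.0209). Dcn, the proteoglycan decorin, fell from 358, 299.5 and 424 to 128, 211 and 168 FPKM (log2 change -1.10 ± 0.24, adjusted p = 0.0427). Mmp2, a gelatinase, fell from 431, 328 and 451 to 231, 221 and 259 FPKM (log2 change -0.77 ± 0.12, adjusted p = 0.0184). The receptors for platelet-derived growth factor fell with them. Pdgfra measured 11.2, 12.4 and 10.5 FPKM in the PB-020 tumors and 6.71, 7.57 and 7.72 FPKM in the combination tumors (log2 change -0.64 ± 0.11, adjusted p = 0.0196), and Pdgfrb measured 27.7, 29.6 and 29.2 FPKM in the PB-020 tumors and 21.8, 21.6 and 24.5 FPKM in the combination tumors (log2 change -0.35 ± 0.0778, adjusted p = 0.0352). Postn, the matrix protein periostin, had higher and separated values in the combination tumors, at 76.4, 96.4 and 87.99 FPKM in the PB-020 tumors and 155, 199 and 182 FPKM in the combination tumors, without passing (log2 change 1.04, adjusted p = 0.142). Lum, the proteoglycan lumican, measured 5.81, 8.11 and 10.4 FPKM in the PB-020 tumors and 11.2, 30.3 and 22.6 FPKM in the combination tumors (adjusted p = 0.255), and Fap, a protease of activated fibroblasts, 1.25, 1.16 and 0.99 FPKM in the PB-020 tumors and 1.29, 1.77 and 1.75 FPKM in the combination tumors (adjusted p = 0.377). No fibroblast marker was called without PB-020 tumor 1, PB-020 tumor 3, combination tumor 1 or combination tumor 2.

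**Figure D3:**
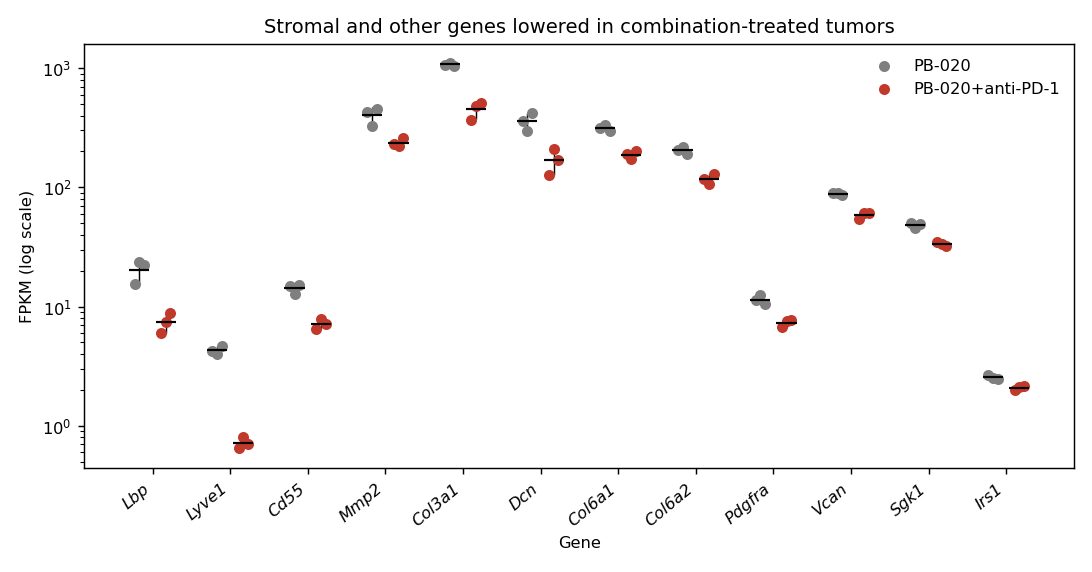
FPKM (log scale) of called stromal and other genes in each PB-020 tumor (grey) and PB-020+anti-PD-1 tumor (red), 3 points per group in order of replicate number, with the mean (horizontal bar) and SD (vertical line). The combination tumors lie below the PB-020 tumors in every gene shown, as in Col3a1 at 364 to 513 FPKM against 1049 to 1097 FPKM.

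Collagens divided in the same way. Of 22 tested, 5 were called lowered (22.7%, against 2.11% of all genes) and 1 raised (4.55%, against 1.25%), with a median of 0.14. Besides Col3a1, the called ones included both short chains of type VI collagen. Col6a1 fell from 315, 333 and 298 to 191, 172 and 200.02 FPKM (log2 change -0.75 ± 0.13, adjusted p = 0.0195), and Col6a2 from 205, 219 and 189 to 117, 107 and 129 FPKM (log2 change -0.80 ± 0.14, adjusted p = 0.0195). Col5a1, a regulator of fibril width, fell from 51.6, 60.1 and 48.9 to 34.3, 36.5 and 41.2 FPKM (log2 change -0.52 ± 0.11, adjusted p = 0.0295). The fifth was Col16a1, at a log2 change of -0.42, and the raised one was Col7a1, the collagen of anchoring fibrils, at 0.40 (adjusted p = 0.0487), both named after their values were seen. The type I chains Col1a1 (log2 change 0.90, adjusted p = 0.431) and Col1a2 (log2 change 0.45, adjusted p = 0.444) had overlapping groups. Col12a1 (log2 change 1.18) and Col14a1 (log2 change 1.18) had separated, higher values without passing. The summed FPKM of the collagens was 2160 to 2490 in PB-020 tumors and 1390 to 1750 in combination tumors. Of this sum, Col3a1 held 1049 to 1097 FPKM in PB-020 tumors and 364 to 513 FPKM in combination tumors.

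Among 26 matrix glycoproteins and proteoglycans, 3 were called lowered, against 2.11% of all genes, and none raised, with 10 members separated downward, against 15.7%, 6 upward, against 14.5%, and a median of -0.03. Besides Dcn these were Vcan, the proteoglycan versican, at 89.3, 89.3 and 86.6 FPKM in the PB-020 tumors and 54.6, 60.8 and 60.9 FPKM in the combination tumors (log2 change -0.57 ± 0.12, adjusted p = 0.0295), and Thbs3, a thrombospondin, at 13.9, 16.1 and 15.7 FPKM in the PB-020 tumors and 10.7, 9.92 and 11.8 FPKM in the combination tumors (log2 change -0.49 ± 0.0904, adjusted p = 0.0209). In both the PB-020 tumors were close together and above all combination tumors. Of 27 integrins and laminins, Lamc1, a laminin chain of basement membranes, fell (log2 change -0.39, adjusted p = 0.0308) and Itgb7, an integrin chain of gut-homing and tissue-resident lymphocytes, rose from 59.00, 61.5 and 57.9 to 91.5, 86.7 and 101 FPKM (log2 change 0.64 ± 0.14, adjusted p = 0.0366). The median of that list was 0.03, and each call was 3.7% of it, against 2.11% of all genes lowered and 1.25% raised. Of 26 genes of TGF-beta signaling 1 was called, a share near the 2.11% of all genes called lowered, with a median of 0.03. Tgfbr3, the co-receptor betaglycan, fell from 12.1, 8.72 and 11.3 to 4.61, 6.16 and 6.8 FPKM (log2 change -0.88 ± 0.19, adjusted p = 0.0363), while Tgfb1 had a log2 change of 0.16 and the receptor Tgfbr2 of -0.12, neither called.

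Vessel markers had mostly overlapping groups, and 1 was called lowered (7.14%, against 2.11% of all genes). Of 14 endothelial markers, Lyve1, a hyaluronan receptor of lymphatic vessels and some macrophages, fell from 4.23, 4.04 and 4.68 to 0.65, 0.81 and 0.7 FPKM (log2 change -2.58 ± 0.52, adjusted p = 0.0352). Pecam1 (log2 change 0.02), Cdh5 (log2 change -0.13) and Kdr (log2 change -0.08) had overlapping groups, and the median was -0.07. Of 26 angiogenic ligands and receptors 4 were called, all lowered (15.4%, against 2.11% of all genes), with a median of -0.08. With Pdgfra and Pdgfrb these were Fgf1, a fibroblast growth factor, at 0.84, 0.87 and 0.91 FPKM in the PB-020 tumors and 0.14, 0.36 and 0.36 FPKM in the combination tumors (log2 change -1.58 ± 0.34, adjusted p = 0.0308), and Apln, the peptide apelin, at 9.76, 12.6 and 10.3 FPKM in the PB-020 tumors and 5.08, 6.34 and 7.05 FPKM in the combination tumors (log2 change -0.82 ± 0.19, adjusted p = 0.0443). Vegfa, the main growth factor of vessels, measured 114, 132 and 104 FPKM in the PB-020 tumors and 128, 114 and 112 FPKM in the combination tumors and did not pass (adjusted p = 0.967). None of 10 pericyte and smooth muscle genes was called by edgeR in the 12 libraries or by DESeq2, the 6 tumors alone gave 1 raised and 1 lowered, and Abcc9, a potassium channel regulator, had the smallest p at a log2 change of -0.55 (adjusted p = 0.141).

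Markers of tissues other than the tumor were examined beside these results, and those of red blood cells and skeletal muscle were mostly lower in the combination tumors. Erythroid genes, which come from red blood cells in the sample, were lower in the combination tumors in all 5 members, with a median of -2.12. None was called by edgeR in the 12 libraries, while DESeq2 called 4 lowered and the fit of the 6 tumors alone 2. Hbb-bs, a beta globin gene, measured 181, 436 and 187 FPKM in the PB-020 tumors and 60.6, 77.8 and 48.4 FPKM in the combination tumors (log2 change -2.10 ± 0.53, adjusted p = 0.0692), and the summed list 449 to 1050 FPKM against 127 to 184 FPKM. Skeletal muscle genes were lower in 8 of 10, with 0 called by edgeR in the 12 libraries or by DESeq2, 6 lowered and 1 raised in the 6 tumors alone, a median of -1.18 and a sum of 41.9 to 60.1 FPKM against 15.6 to 27.1 FPKM. Myh1, a myosin of fast muscle, measured 3.09, 2.42 and 2.29 FPKM in the PB-020 tumors and 0.28, 0.75 and 0.82 FPKM in the combination tumors (adjusted p = 0.318). The muscle gene Chrna1 fell along with them, and the part of muscle tissue in its change was not tested. Keratinocyte genes Krt5, Krt1 and Krtdap were nearly confined to PB-020 tumor 3 and combination tumor 2, as in Krt5 at 0.14, 0 and 4.94 FPKM in the PB-020 tumors and 0, 6.77 and 0.29 FPKM in the combination tumors, whereas Krt14 was abundant in all 6 at 107, 119.7 and 125 FPKM in the PB-020 tumors and 206, 178 and 165 FPKM in the combination tumors (log2 change 0.66, adjusted p = 0.0588). Of the 5 keratinocyte genes none was called by edgeR in the 12 libraries and 1 was raised with DESeq2 and in the 6 tumors alone, with a median of 0.62 that was 3.89 without PB-020 tumor 3 and -3.18 without combination tumor 2. Of 4 adipocyte genes none was called in any of these 3 fits, and the median was -0.40, but 0.13 without PB-020 tumor 3 and -1.25 without PB-020 tumor 2, over the 5 adipocyte genes tested in those fits, with Cfd, adipsin, at 1.07, 0.92 and 4.88 FPKM in the PB-020 tumors and 0.7, 1.63 and 1.37 FPKM in the combination tumors. The part of these tissues in the stromal changes was not tested.

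Among genes of the pathway that PB-020 is aimed at, Igf1r, Igf1, Akt1 and Irs2 were not called when the antibody was added. Irs1, Igf2r, Sgk1 and Pik3r2 were called lowered. The study also counts Pdgfra and Pdgfrb among its PI3K/AKT pathway genes, and both were called lowered above. Igf1r measured 10.6, 10.9 and 10.5 FPKM in the PB-020 tumors and 9.53, 10.1 and 10.7 FPKM in the combination tumors (log2 change -0.08 ± 0.064, adjusted p = 0.504). The ligand Igf1 measured 1.87, 1.28 and 1.31 FPKM in the PB-020 tumors and 1.13, 3.12 and 2.81 FPKM in the combination tumors (log2 change 0.66 ± 0.68, adjusted p = 0.606), with combination tumor 1 the lowest of all 6. Akt1 measured 107, 101 and 118 FPKM in the PB-020 tumors and 104, 104 and 116 FPKM in the combination tumors (log2 change -0.01 ± 0.0689, adjusted p = 0.973), and Irs2 14.1, 16.1 and 12.6 FPKM in the PB-020 tumors and 12.7, 12.6 and 15.6 FPKM in the combination tumors (log2 change -0.07 ± 0.0961, adjusted p = 0.694). For these 4 genes the groups overlapped. Of 14 genes of the IGF axis, 2 were called and both fell (14.3%, against 2.11% of all genes), with a median of -0.10. Neither was called with limma or without any single CK, PB-020 or combination tumor, whereas DESeq2 called 4 of the list lowered. Irs1, the adaptor that links the receptor to PI3K, fell from 2.67, 2.54 and 2.49 to 2.0, 2.1 and 2.14 FPKM (log2 change -0.30 ± 0.0735, adjusted p = 0.0419). Igf2r, the scavenging receptor for IGF2, measured 20.7, 19.8 and 16.9 FPKM in the PB-020 tumors and 13.9, 13.6 and 16.2 FPKM in the combination tumors (log2 change -0.40 ± 0.10, adjusted p = 0.0499). Of 42 intracellular nodes of PI3K and AKT, 2 were called lowered (4.76%, against 2.11% of all genes) and 1 raised (2.38%, against 1.25%), with a median of -0.02. Sgk1, a kinase related to AKT, fell from 50.5, 45.9 and 49.5 to 35.02, 33.3 and 32.5 FPKM (log2 change -0.54 ± 0.0938, adjusted p = 0.0195). Pik3r2, a regulatory subunit of PI3K, fell from 39.4, 35.1 and 37.9 to 26.2, 30.1 and 31.7 FPKM (log2 change -0.36 ± 0.0877, adjusted p = 0.0455). The raised member, Ccne2, is a cyclin counted below as well.

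Genes of DNA replication were slightly higher in the combination tumors. All 27 genes of the G1/S list had a positive log2 change with a median of 0.21, and 4 were called raised (14.8%, against 1.25% of all genes). Pola1, the catalytic subunit of DNA polymerase alpha, measured 17.5, 23.01 and 19.1 FPKM in the PB-020 tumors and 34.5, 30.7 and 25.2 FPKM in the combination tumors (log2 change 0.60 ± 0.14, adjusted p = 0.0469). Ccne2, cyclin E2, measured 9.13, 12.99 and 10.7 FPKM in the PB-020 tumors and 15.99, 17.5 and 14.2 FPKM in the combination tumors (log2 change 0.52 ± 0.13, adjusted p = 0.0469). Cdc25a, a phosphatase that activates cyclin-dependent kinases, measured 5.91, 6.65 and 6.28 FPKM in the PB-020 tumors and 8.24, 7.96 and 8.53 FPKM in the combination tumors (log2 change 0.39 ± 0.076, adjusted p = 0.0256), and Chek1, a checkpoint kinase, measured 11.8, 11.9 and 11.5 FPKM in the PB-020 tumors and 15.8, 14.4 and 14.6 FPKM in the combination tumors (log2 change 0.34 ± 0.0841, adjusted p = 0.0454). The changes of these genes were under 2-fold with separated groups. Of 25 genes of G2/M and mitosis 24 were positive and none was called by edgeR in the 12 libraries. DESeq2 called 2 raised and the fit of the 6 tumors alone 2. The median was 0.20, and Top2a, a topoisomerase, had the smallest p (log2 change 0.38, adjusted p = 0.089). Of 24 genes of glycolysis and hypoxia none was called by edgeR in the 12 libraries, against 2 raised with DESeq2 and 2 in the 6 tumors alone. The median was 0.13. Pgk1, a glycolytic kinase, measured 580.4, 695 and 617 FPKM in the PB-020 tumors and 927, 864 and 793 FPKM in the combination tumors (adjusted p = 0.0617). Of 20 genes of sterol and fatty acid synthesis none was called by edgeR in the 12 libraries, against 1 raised with DESeq2 and 1 in the 6 tumors alone. The median was 0.09, and Dhcr7, the last enzyme of cholesterol synthesis, had a log2 change of 0.38 (adjusted p = 0.0692).

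Over the 36 lists together, 44 of 534 tested genes were called, 24 raised and 20 lowered, counting each gene once. Of all genes tested, 3.35% were called, 1.25% raised and 2.11% lowered. In the fit of the 6 tumors alone 175 were called and with DESeq2 119, and in the fits without PB-020 tumor 1, PB-020 tumor 3, combination tumor 1 or combination tumor 2 none was. Without PB-020 tumor 2 or combination tumor 3 the calls were 28 and 10, and 128 and 74 genes were called when anti-PD-1 tumor 1 or 2 was left out.

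The antibody's effect without PB-020 was measured in the other 6 tumors, as anti-PD-1 alone against CK, a contrast that shares no library with the combination against PB-020 but is drawn from the same fit. It called 1120 genes (8.26%). Of the 455 genes altered on the PB-020 background, 315 were called there too, 69.2% of the 455 and 28.1% of the 1120, and all 315 moved in the same direction. The sign was shared by 454 of the 455 genes, against 77.0% of all genes, Ppp1r15a being the exception, and 398 (87.5%) had anti-PD-1 tumors that did not overlap the CK tumors in that direction, whereas 29.0% of all genes did not overlap in either. Raised genes had a median log2 change of 0.63 with PB-020 and 0.55 without, and lowered genes -0.47 and -0.44. Lbp, for instance, had a log2 change of -1.47 with PB-020 and -1.31 without, Col3a1 of -1.25 and -1.33, Cd2 of 1.51 and 1.53, and Erap1 of 0.57 and 0.60. The calls of anti-PD-1 alone numbered 3 when only those 6 tumors were fitted, and 137, 637, 625, 1905 and 238 without CK tumor 2, CK tumor 3, and anti-PD-1 tumors 1, 2 and 3.

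**Figure D4:**
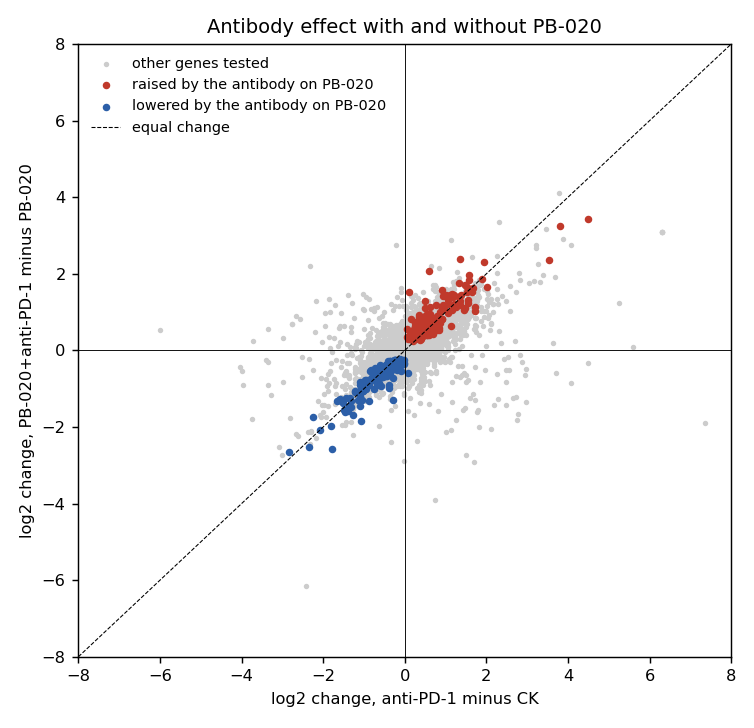
Log2 change of each gene with anti-PD-1 on the PB-020 background (vertical axis, combination minus PB-020) against the change without PB-020 (horizontal axis, anti-PD-1 minus CK), with the line of equal change dashed. Of the 455 genes raised (red) or lowered (blue) on the PB-020 background, 454 have the same sign on both axes. Distance from the line was not measured, and some called genes lie off it, as Siglech at 2.07 with PB-020 and 0.59 without.

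The difference between both antibody effects was tested as an interaction and no gene passed in edgeR, where the smallest adjusted p was 1 and 310 genes (2.29%) had an unadjusted p under 0.05. DESeq2 and limma also called 0. No gene was thus shown to respond to the antibody otherwise with PB-020 than without it. The genes with the smallest interaction p were Aldh1l2, a mitochondrial folate enzyme, Fam171b, Bhlhe40, a transcription factor of activated T cells and macrophages, and Ankrd1 on the negative side, and Plac9a, Mat2a, Tenm3 and Trpc2 on the positive side. Aldh1l2 had a log2 change of -0.27 with PB-020 and 0.30 without (interaction -0.57, adjusted p = 1), and Bhlhe40 of 0.12 and 0.77 (interaction -0.65, adjusted p = 1). Of the others, Fam171b had log2 changes of -0.37 and 0.41, Ankrd1 of -0.05 and 0.57, Plac9a of 0.12 and -1.65, Mat2a of 0.18 and -0.19, Tenm3 of -0.31 and -0.97, and Trpc2 of 2.21 and -2.33. Cd55, which fell on the PB-020 background, had a log2 change of -0.38 without PB-020 that was not called (adjusted p = 0.0793), but the difference between both effects did not pass (interaction -0.61, adjusted p = 1).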

How the data were processed

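Total RNA of whole MC38 tumors was sequenced as paired reads of 150 bases. Per the study's methods, the authors aligned reads with Bowtie2 and estimated expression with RSEM; the submitters' notes also name HISAT and GRCm38.p6, and the methods name the build as mm10 or hg19, so the order of these steps is uncertain. The authors deposited expected counts, FPKM and TPM per gene for each of the 12 tumors, with averages that were not used. The deposited expected counts (91.0% whole) were rounded to whole numbers, and the deposited FPKM values served as per-tumor levels. The deposited TPM values were not used here.

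Genes were filtered with filterByExpr (minimum count 10), scaled by TMM and tested with edgeR 4.0.16 (glmQLFit with robust settings, glmQLFTest, two-sided, R 4.3.3) in one model of 4 groups and 12 libraries with 8 residual degrees of freedom, and 4 when only the 6 tumors were fitted. Every adjusted p in the text is from this test with Benjamini-Hochberg adjustment over 13563 genes, unless another fit is named. Contrasts were the combination against PB-020, anti-PD-1 against CK, and their difference (interaction). DESeq2 1.42.0, limma 3.58.1 on log2(FPKM + 1) or log2(FPKM + 0.1), other scalings and filters, a replicate block, the study's 1.5-fold rule and fits without single libraries were alternatives. A group was called separated when its 3 FPKM values all lay on one side of the other group's.

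The comparison, the 36 gene lists and the genes were chosen with earlier results of these data known. Named genes were the 12 raised and 12 lowered with the smallest p among called, separated genes, up to 4 called members of each list (or the member with the smallest p), PD-1 and IGF-1R with their partners, and the 4 genes with the smallest interaction p in each direction. List members outside this rule and the genes so described were picked after their values were seen. Of 18211 genes, 18091 (99.3%) matched a RefSeq gene by NCBI gene identifier. Promoters came from RefSeq (GRCm38.p6), and 10732 of the 13563 genes tested had a promoter sequence. No 2 libraries held identical counts. Some genes that the rule names or the lists hold are not reported here. Precision is limited by 3 tumors per group.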

Additional observations from a re-analysis of the deposited data

How the results depend on the processing

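The antibody's effect on the PB-020 background was called in 455 genes, and the count moved widely. It was 1093 with DESeq2, 1535 when only the 6 tumors compared were fitted and 804 with the 1.5-fold rule at an unadjusted p, and it ranged from 0 to 1269 when single libraries were left out, and from 685 to 2074 when that was done within the 6 tumors alone. Raised genes were 37% of the calls, 48% with DESeq2, 53% in the 6 tumors alone and 65.5% (527 of 804) under the 1.5-fold rule. For the gene lists, 44 calls became 119 with DESeq2 and 175 in the 6 tumors alone, and 0 to 128 without single libraries. The 1120 calls of anti-PD-1 against CK became 3 when only those 6 tumors were fitted, and 137 to 1905 without single libraries. The interaction stayed at 0 calls except for 98 genes under the 1.5-fold rule at an unadjusted p, and 0 to 1 without single libraries. Other scalings, filters and limma on FPKM gave between 351 and 448 calls of the combination against PB-020. The causes of these shifts were not tested, except that a fit with fewer tumors has fewer degrees of freedom.

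With the replicate number as a block, the combination against PB-020 gave 320 calls, of which 279 were shared with the fit without the block. By list, the block gave 2 calls in the interferon-inducible GTPases, 4 in the interferon gamma axis and 9 in MHC class I presentation. It gave 0 in the T cell list and 0 in the IGF axis. Between the PB-020 and combination groups, tumors with the same number showed no consistent joint deviation (correlations 0.15, -0.18 and -0.21). The CK and anti-PD-1 tumors were not compared in this way, so a factor shared by number across the 4 groups was not tested. Of the single genes named, those that reversed sign were not called: Akt1, between -0.0485 and 0.064 without single libraries, had a log2 change of 0.00381 with DESeq2, 0.00378 with its size factors, 0.00121 without CK tumor 1, 0.00543 without CK tumor 3, 0.064 without PB-020 tumor 3, 0.00128 and 0.00133 without anti-PD-1 tumors 2 and 3, and 0.0196 and 0.0133 without combination tumors 1 and 2. Cfd lay between -1.26 and 0.312 without single libraries, the latter without PB-020 tumor 3, and Irs2 reached 0.0255 without PB-020 tumor 2. Over the named genes and alternatives, 1376 values kept direction and side of the threshold, 408 no longer passed, 47 newly passed and 11 reversed. Counts below about 10 per library, as for Mcpt1 and Vsig4, limit the precision of those genes.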
